A study of Mus musculus with 2 samples.

Results

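A set of uterine stromal cells with high Ccl2, Cxcl1 and Ifi27l2a was examined in the library labelled KO. The set held 271 of the 1085 stromal cells of that library, and 7413 cells passed the filters in both libraries together. Cells were first called stromal from the summed counts of Dcn, Col1a2, Col3a1, Col6a2, Pdgfra and Hsd11b2, with limits on epithelial and smooth muscle genes. The members were then the top 25% of these cells by the summed unique molecular identifiers (UMIs) of Ccl2, Cxcl1 and Ifi27l2a per 10000 UMIs of the cell. The lowest member had 10.37 per 10000 and the highest cell left outside had 10.29, so the limit cuts a continuous range. The other 814 stromal cells of the same library and 3340 stromal cells of the control library served for comparison.

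The study measured single uterine cells of female mice at gestational day 3.5 with 10x droplets, with 1 library per genotype and no stated age. The library labelled KO came from Pgrcre/+ Mig-6f/f mice, in which Cre is expressed from the progesterone receptor gene (Pgr), and the control library came from Mig-6f/f mice. Both genotypes carry the floxed Mig-6 allele, so Cre is the labelled difference. Mig-6 is the protein of Errfi1, which restrains signalling by the EGF receptor and whose gene responds to progesterone in the uterus. The tissue was dissociated with trypsin, and a kit for removing dead cells was used against blood cells.

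Ccl2 and Cxcl1 encode chemokines, secreted proteins that draw monocytes (Ccl2) and neutrophils (Cxcl1) out of the blood. Both genes are classical targets of NF-kB, a transcription factor held in the cytoplasm by Nfkbia until cytokines, microbial products or stress release it. Ifi27l2a belongs instead to the genes that interferons switch on. In the uterus, stromal fibroblasts take part in leukocyte recruitment and, after progesterone priming and implantation, become decidual cells.

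The library labelled KO held 23317904 UMIs over 3118 barcodes (median 4695) and the control library 44871170 UMIs over 4627 barcodes (median 9090), and 3 barcodes occurred in both. Stroma made up 36.8% of the kept cells in the library labelled KO and 74.9% in the control. The median stromal cell held 3827 UMIs among the members, 3514 in the other stroma of that library and 9001 in control stroma. The median share of mitochondrial UMIs was 3.07%, 3.36% and 3.61% in the same order. Without replicates no comparison was tested, and all intervals below are 95% intervals that cover counting error only. Levels are in CPM, UMI sums per 1000000 UMIs of the group with Ccl2, Cxcl1 and Ifi27l2a left out of the total. Because the members were chosen by their own values, every difference between them and the other stroma is a description.

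The summed level of the 3 genes had a median of 17.7 per 10000 in the members, with a highest value of 69.71. In the other stroma of the library labelled KO the median was 2.91, and 292 cells (35.9%) had no UMI of these genes. In control stroma the median was 0, and 2236 cells (66.9%) had none. The lowest member's level was reached by 43 of 3340 control stromal cells (1.29%, 0.933 to 1.73%). After every cell was thinned to 2000 UMIs, which leaves out shallower cells (24 members, 93 other stromal cells and 32 control cells), it was reached by 22.7% of stroma in the library labelled KO (20.1 to 25.5%) and 1.09% of control stroma (0.763 to 1.5%). In cells of exactly 2000 UMIs the level moves in whole-UMI steps, so the limit in force after thinning lies above the lowest member's level. The limit was set on stroma of the library labelled KO, so that library's share is a product of the rule.

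**Figure D1:**
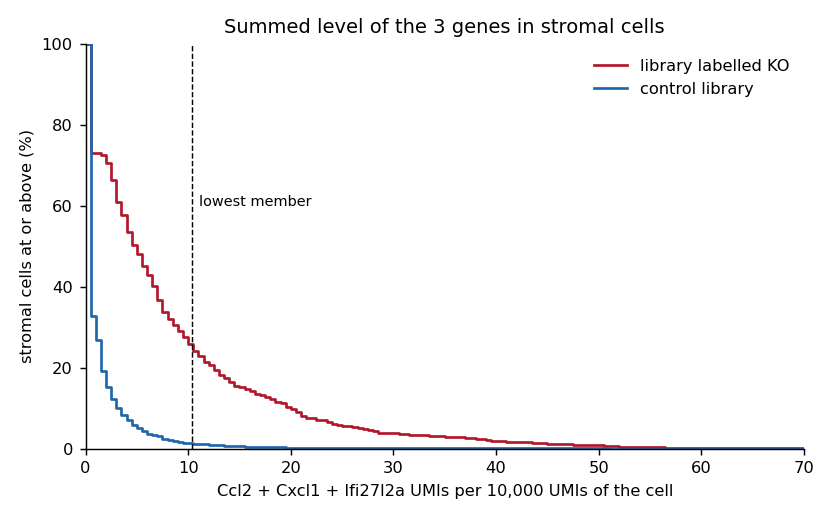
Percentage of stromal cells (vertical axis) at or above each summed level of Ccl2, Cxcl1 and Ifi27l2a in UMIs per 10000 UMIs of the cell (horizontal axis), for the library labelled KO in red and the control library in blue. The dashed line marks the lowest member at 10.37, where the control curve lies at 1.29%; the axis ends at 70 and the highest control cell, at 156.6, lies beyond it.

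The chemokine genes and Ifi27l2a were distributed differently. Ccl2 was at 836 CPM in the members, 69.3 CPM in the other stroma and 31.8 CPM in control stroma. Cxcl1 was at 644, 49.8 and 39.4 CPM in the same groups. Ifi27l2a was at 628, 235 and 32.4 CPM, so the other stroma of the library labelled KO also held more of it than control stroma. At 2000 UMIs per cell, Ifi27l2a was detected in 59.9% of members, 39.5% of the other stroma and 6.20% of control stroma, and Ccl2 in 51.4%, 9.15% and 3.57%. All 3 genes were found in 72 members (26.6%), 2 of them in 103 (38.0%) and 1 in 96 (35.4%).

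Free RNA in the droplets was gauged with Ccl2 in epithelial cells, which should lack it. Ccl2 was detected in 5 of 1423 epithelial cells of the library labelled KO (0.351%, median 9532 UMIs), against 57.2% of members and 14.5% of the other stroma, which were shallower. Cxcl1 had UMIs in 49.9% of those epithelial cells and in 5.29% of 170 leukocytes (median 1753 UMIs). Ifi27l2a had UMIs in 34.9% of epithelial cells and 27.6% of leukocytes, and 76.4% of members and 52.7% of the other stroma had it. Over all UMIs, Cxcl1 was at 197 CPM in those epithelial cells (3455 UMIs in 710 cells) and 208 CPM in all stroma of that library. Ifi27l2a was at 543 CPM in the leukocytes and 340 CPM in that stroma. Such cells may express these genes themselves, so their shares do not gauge free RNA. The part of free RNA in single Cxcl1 and Ifi27l2a UMIs was not tested.

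The promoter of Cxcl1, one of the genes that chose the members, is shown to set it beside the NF-kB genes below, from RefSeq on build GRCm38.p6 (the authors' files name another build, mm39). The window, chr5:90890995-90891294 on the plus strand, runs from 250 bases before the start site to 50 after it, with matches on either strand to an NF-kB motif (GGG, any 2 bases, then TTTCC) in capitals.
Cxcl1 promoter: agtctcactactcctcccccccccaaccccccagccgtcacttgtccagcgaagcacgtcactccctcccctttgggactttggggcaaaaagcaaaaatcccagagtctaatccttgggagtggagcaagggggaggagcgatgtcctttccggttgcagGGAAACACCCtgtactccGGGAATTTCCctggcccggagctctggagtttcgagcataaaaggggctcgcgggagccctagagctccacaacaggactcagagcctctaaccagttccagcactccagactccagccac
The match on the plus strand starts 71 bases before the start site and the match on the minus strand 89 bases before it, and they do not overlap. Such a match is held by 535 of all 32851 promoters in the table (1.63%).

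As a list, stromal markers that the rule did not use were level between the members and the other stroma. Of 13 further stromal markers (Vim, Hoxa10, Hoxa11, Hand2, Pgr, Esr1, Nr2f2 and others), 12 passed the minimum of 100 UMIs, and their summed level was 5305 CPM in the members and 5338 CPM in the other stroma. Their median log2 ratio of members over other stroma was 0.01, and 1 of the 12, Lum, was at least 1.5-fold higher (5.45% of all genes were). Hoxa10 and Hoxa11 were lower in the 171 members led by Ccl2 and Cxcl1, a kind described below. Pgr, the gene that carries Cre, was at 436 CPM in the members, 398 CPM in the other stroma and 238 CPM in control stroma.

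Markers of other cell types were low. Of the macrophage list, C1qa, C1qb, C1qc and Adgre1 were at 0 in the members, and the list summed to 22.3 CPM in the members, 12.1 CPM in the other stroma and 14.7 CPM in control stroma. Of the neutrophil list, S100a8, S100a9, Retnlg, Csf3r and Cxcr2 were at 0 in the members, and the sums were 5.57, 2.02 and 8.17 CPM. The NK and T cell list, with Cd3e, Cd3d, Prf1, Gzmb, Gzmc and Klrb1c at 0, summed to 27.8, 6.39 and 6.62 CPM, so its sum was highest in the members. Ccl5 of this list had 11 UMIs (39.0 CPM) in the 90 members led by Ifi27l2a, a kind described below. It had 4 UMIs (5.23 CPM) in the 171 members led by Ccl2 and Cxcl1, and was at 2.35 CPM in the other stroma. Endothelial markers summed to 39.0, 22.5 and 66.8 CPM (Tie1 at 0 in the members), pericyte markers to 29.7, 38.3 and 39.4 CPM, and smooth muscle markers outside the rule to 456, 513 and 357 CPM. Mesothelial markers summed to 104, 129 and 132 CPM, with Wt1 giving all of it in the members, B and plasma cell markers to 20.4, 22.5 and 171 CPM (most immunoglobulin UMIs of the control's lower 75% lay in 1 barcode), and hemoglobin and Alas2 to 1.86, 1.01 and 0.775 CPM. Markers of matrix fibroblasts, another stromal kind, summed to 2301, 2449 and 2017 CPM. Epithelial markers summed to 223 CPM in the members and 212 CPM in the other stroma, against 64.3 CPM in control stroma. The general leukocyte list reached 1089 and 961 CPM in the members and the other stroma, of which Srgn alone gave 1062 and 948 CPM, while Ptprc gave 12 and 14 UMIs in all. UMIs of Ptprc, Cd52, Laptm5, Coro1a, Cd53, Tyrobp or Fcer1g occurred in 5 members (1.85%) and 12 other stromal cells (1.47%), and without these cells 303 genes were at least 1.5-fold higher in the members and 315 lower, beside 308 and 312 with them.

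The targeted gene was compared next. Errfi1 was at 546 CPM in the members (503 to 592), 812 CPM in the other stroma (780 to 845) and 193 CPM in control stroma (188 to 198). Both groups of the library labelled KO were thus above control stroma. These counts do not show a loss of the gene, and the label is used here only as a name. The sources used here do not say which part of the gene is deleted, so reads outside that part would check nothing. Within the library labelled KO, Errfi1 was 1.49-fold lower in the members, with a ratio of 0.672 (0.613 to 0.736). In the control library, the top 25% of stroma by the same 3 genes (835 cells) had a ratio of 0.930 (0.876 to 0.988) to the other 2505 cells.

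Most NF-kB genes and several chemokines were higher in the members than in the other stroma. Of 17 measured stromal genes of progesterone and Hedgehog response, 5 were at least 1.5-fold lower. Few measured genes of type I interferon, class I presentation or decidualization passed 1.5-fold, although 7 of 9 type I interferon genes were above 1. Of 5653 genes measured (at least 100 UMIs in members and other stroma together), 308 (5.45%) were at least 1.5-fold higher in the members and 312 (5.52%) at least 1.5-fold lower, and the median log2 ratio was -0.06. The genes described below were ranked by the interval bound of the ratio nearest to 1. The same split was made in the control library, where 10981 genes were measured, 448 (4.08%) were higher in the top 25% and 486 (4.43%) lower. The limit for that top 25% lay at 1.100 per 10000, which is close to 1 UMI in a control cell, so this split holds cells at lower levels than the members.

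Further chemokines stood at the top of the ranking. Ccl7, a monocyte chemokine encoded beside Ccl2, was at 391 CPM in the members, 70.3 CPM in the other stroma and 29.1 CPM in control stroma, with a ratio of members over other stroma of 5.56 (4.70 to 6.59). Cxcl2, a neutrophil chemokine and close relative of Cxcl1, was at 132, 33.0 and 8.21 CPM, with a ratio of 4.0 (3.07 to 5.23). Cxcl1 and Cxcl2 are similar genes, and reads shared between them could blur their separate values. Cxcl10, which attracts T and NK cells through Cxcr3, was at 925, 396 and 139 CPM, with a ratio of 2.34 (2.15 to 2.55). In the control split the ratios were 4.34, 14.0 and 2.45. Among 8 chemokine and cytokine genes measured, 5 were at least 1.5-fold higher (Ccl7, Cxcl2, Cxcl10, Cxcl12 and Csf1), beside 5.45% of all genes. The median log2 ratio was 1.00, while Cxcl14 had a ratio of 1.20 and Mif 0.895. Il6 had 19 UMIs in the members and 21 in the other stroma, 17.6 and 7.06 CPM, and was below the minimum.

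Most NF-kB genes were higher in the members. Of the 22 measured, 16 were at least 1.5-fold higher in the members and 0 at least 1.5-fold lower, beside 5.45% and 5.52% of all genes. The median log2 ratio was 0.91, beside -0.06 over all genes. The list summed to 5559 CPM in the members, 2896 CPM in the other stroma and 1743 CPM in control stroma. Nfkbia, the inhibitor that NF-kB induces as its own brake, was at 1266, 602 and 255 CPM, a ratio of 2.10 (1.96 to 2.26). Nfkb1, a subunit of the factor, was at 732, 322 and 202 CPM, a ratio of 2.28 (2.07 to 2.51). Tnfaip3, a further inhibitor in the pathway, had a ratio of 2.42 (1.92 to 3.05), Birc3, an inhibitor of cell death, 2.2 (1.60 to 3.01), and Relb, another subunit, 1.90 (1.52 to 2.38). Icam1, the adhesion molecule that leukocytes bind, was at 241, 82.4 and 49.3 CPM, a ratio of 2.93 (2.45 to 3.50). Cd44, a receptor for hyaluronan, had a ratio of 2.43 (1.97 to 2.99). In the control split 18 of 28 measured NF-kB genes were at least 1.5-fold higher, with a median of 0.78. With members chosen without Ccl2 the median in the library labelled KO was 0.32, and without Ifi27l2a 1.28. With the top 25% taken within each cluster of stroma it was 0.59.

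Other genes of defence and stress accompanied them. Irf1, a transcription factor that interferon gamma and NF-kB both induce, was at 246 CPM in the members, 77.7 CPM in the other stroma and 57.7 CPM in control stroma, a ratio of 3.17 (2.64 to 3.79). Casp4, a caspase that senses cytosolic lipopolysaccharide, was at 212, 74.3 and 11.1 CPM, a ratio of 2.85 (2.36 to 3.44). Ier3, an early response gene, had a ratio of 2.61 (2.33 to 2.93), and Junb, a subunit of AP-1, 2.22 (1.96 to 2.51). Of 16 receptors and transducers of inflammation measured, 6 were at least 1.5-fold higher, beside 5.45% of all genes. Among them were Tlr4, the receptor for lipopolysaccharide, at 1.84 (1.26 to 2.67) and Il1rap, the co-receptor for interleukin 1, at 1.89 (1.38 to 2.59). The receptors Il1r1 and Tnfrsf1a had ratios of 0.995 (0.637 to 1.52) and 0.948 (0.687 to 1.29). Of 7 complement and acute phase genes measured, 3 were at least 1.5-fold higher (C3, Cp and Ptx3), beside the same 5.45%, with a median log2 ratio of 0.21.

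The remaining genes at the top of the ranking belonged to varied groups. Across all 15 ranked higher, 12 were also at least 1.5-fold higher in the control split, and the other 3 (Hacd2, Cd44 and Mgp) had ratios of 1.29, 1.30 and 1.12 there. Bmp2, a growth factor that stroma needs to become decidual, was at 111 CPM in the members, 38.7 CPM in the other stroma and 24.3 CPM in control stroma, a ratio of 2.88 (2.21 to 3.75). Of the 12 decidualization genes measured, Bmp2 was the 1 at least 1.5-fold higher (5.45% of all genes were), and the median log2 ratio was -0.03. Wnt4, its partner in decidualization, was at 36.2 and 37.3 CPM in the members and the other stroma, and Inhbb, an activin subunit, at 126 and 127 CPM. Hacd2, an enzyme of fatty acid elongation, had a ratio of 2.53 (2.09 to 3.07), Pdzd2 2.65 (2.06 to 3.42) and Mgp, an inhibitor of calcification, 2.38 (1.96 to 2.88). Mgp was at 190, 80.1 and 270 CPM, so it was highest in control stroma. It was detected in 17.0% of members and 14.0% of the other stroma, and 164 of its 205 UMIs in the members lay in the 136 members with the highest summed level of the 3 genes.

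**Figure D2:**
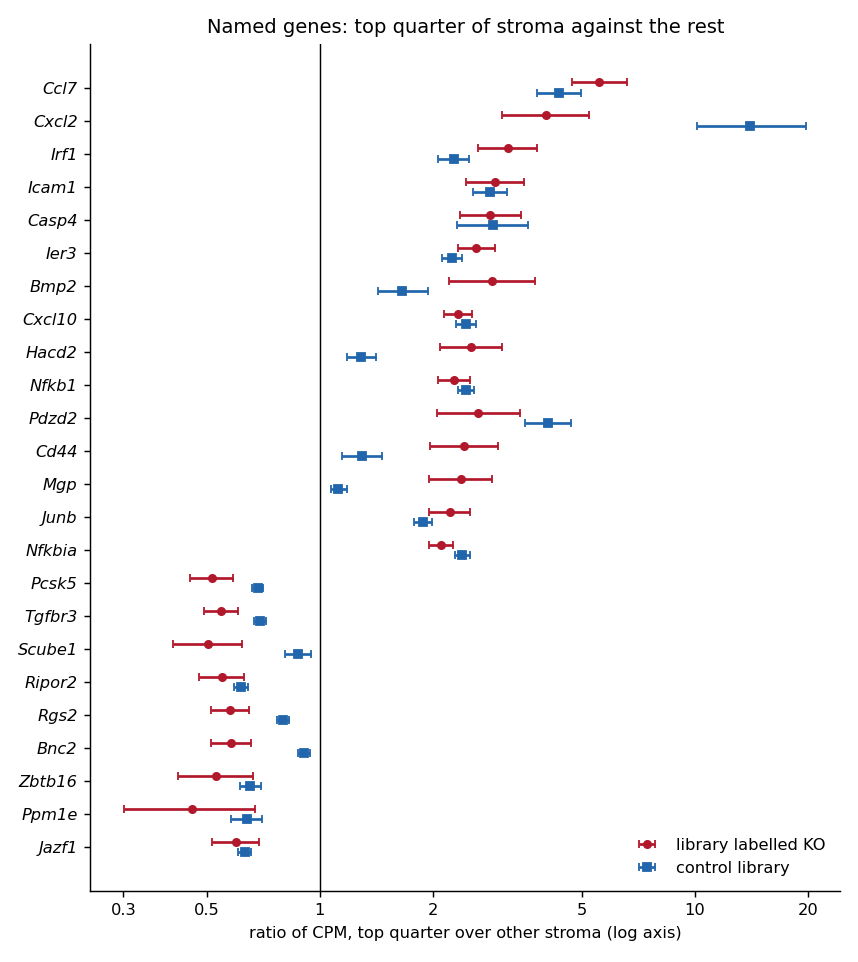
Ratio of CPM between the top 25% of stroma by Ccl2, Cxcl1 and Ifi27l2a and the other stroma (horizontal log axis) for 24 genes singled out by rank (rows), in the library labelled KO (red circles) and in the control library (blue squares), with 95% intervals for counting error. The 15 upper genes lie above 1 and the 9 lower genes below 1 in both libraries; Cxcl2 has the highest control ratio, 14.0.

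The genes lower in the members included transcription factors and signalling components of stroma. Zbtb16, a zinc finger factor that progesterone induces in stroma, was at 85.4 CPM in the members, 161 CPM in the other stroma and 217 CPM in control stroma, a ratio of 0.530 (0.419 to 0.664). Tgfbr3, a co-receptor for TGF-beta family ligands, was at 395, 723 and 662 CPM, a ratio of 0.547 (0.492 to 0.608). Rgs2, which shortens G protein signals, had a ratio of 0.578 (0.515 to 0.647), and Pcsk5, a convertase that cuts growth factor precursors, 0.516 (0.451 to 0.589). The ratio was 0.505 for Scube1, 0.549 for Ripor2, 0.581 for Bnc2, 0.457 for Ppm1e and 0.598 for Jazf1. All 10 ranked genes were below 1 in the control split too, but 4 of them passed 1.5-fold there. When the top 25% was taken within each cluster of stroma, 0 of the 10 stayed past 1.5-fold, and the highest ratio was 0.955.

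The stromal progesterone and Hedgehog list was lower on balance, with 5 of 17 measured genes at least 1.5-fold lower and 1 higher, beside 5.52% and 5.45% of all genes. Its median log2 ratio was -0.37. Ptch1, the Hedgehog receptor and a target of the pathway, was at 34.3 CPM in the members, 60.9 CPM in the other stroma and 125 CPM in control stroma, a ratio of 0.564 (0.385 to 0.807). Gli2, a transcription factor of the same pathway, had a ratio of 0.493 (0.334 to 0.709). Fkbp4, a co-chaperone of the progesterone receptor, had 0.655 (0.531 to 0.802) and Igf1, a growth factor, 0.636 (0.578 to 0.699). Sgk1, a kinase induced by steroids and stress, was the 1 higher gene, at 2.13 (1.67 to 2.70). Pgr itself had a ratio of 1.10 (0.984 to 1.22) and Hand2, which restrains FGF signals from stroma, 0.997 (0.752 to 1.31). In the control split the median of the list was -0.12.

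In the list of ERK pathway feedback genes, which also holds the ligand Nrg1, 3 of 7 measured were at least 1.5-fold higher. This count and those that follow stand beside 5.45% of all genes higher and 5.52% lower. Errfi1, of the same list, went the other way, with a ratio of 0.672 (0.613 to 0.736). Phlda1 had a ratio of 2.01 (1.67 to 2.43), Spry2, an inhibitor of receptor signalling, 1.82 (1.29 to 2.55) and Nrg1, a ligand of ERBB receptors, 1.55 (1.43 to 1.68). Nrg1 was at 860 CPM in the members, 555 CPM in the other stroma and 100 CPM in control stroma. Extracellular matrix genes were largely level, with 3 of 32 (Col5a3, Lum and Thbs1) at least 1.5-fold higher and a median of 0.12. Matrix remodelling genes had 4 of 18 higher and 1 lower, the protease Mmp19. Glycolysis and hypoxia genes had 1 of 22 higher and 2 lower, and oxidative stress genes 2 of 16 higher. Of 4 cell cycle genes measured, 1 was higher, Cdkn1a, an inhibitor of the cycle, and of 6 nuclear RNAs 1, Neat1.

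Genes of early cellular stress moved with the members and stand beside every result above. Of 28 immediate early and AP-1 genes measured, 17 were at least 1.5-fold higher, with a median log2 ratio of 0.67, and the list summed to 8559 CPM in the members, 5361 CPM in the other stroma and 4043 CPM in control stroma. Egr1 had a ratio of 2.09 (1.90 to 2.30), Jun 1.76 (1.65 to 1.89), Atf3 1.74 (1.60 to 1.91) and Fos 1.64 (1.46 to 1.85). Heat shock genes summed to 18723, 14546 and 14537 CPM, with 3 of 15 at least 1.5-fold higher (Hspb1, Dnajb1 and Dnajb4). Ddit3 and Herpud1, of the unfolded protein response, had ratios of 2.05 (1.70 to 2.48) and 1.73 (1.56 to 1.92), as 2 of 17 measured in that list. Such genes are also induced while tissue is dissociated, and the part of dissociation in these results was not tested. With the top 25% taken within each of 5 equal bins of stroma by the summed immediate early genes, the median of that list was 0.15, and that of the NF-kB list was 0.50.

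**Figure D3:**
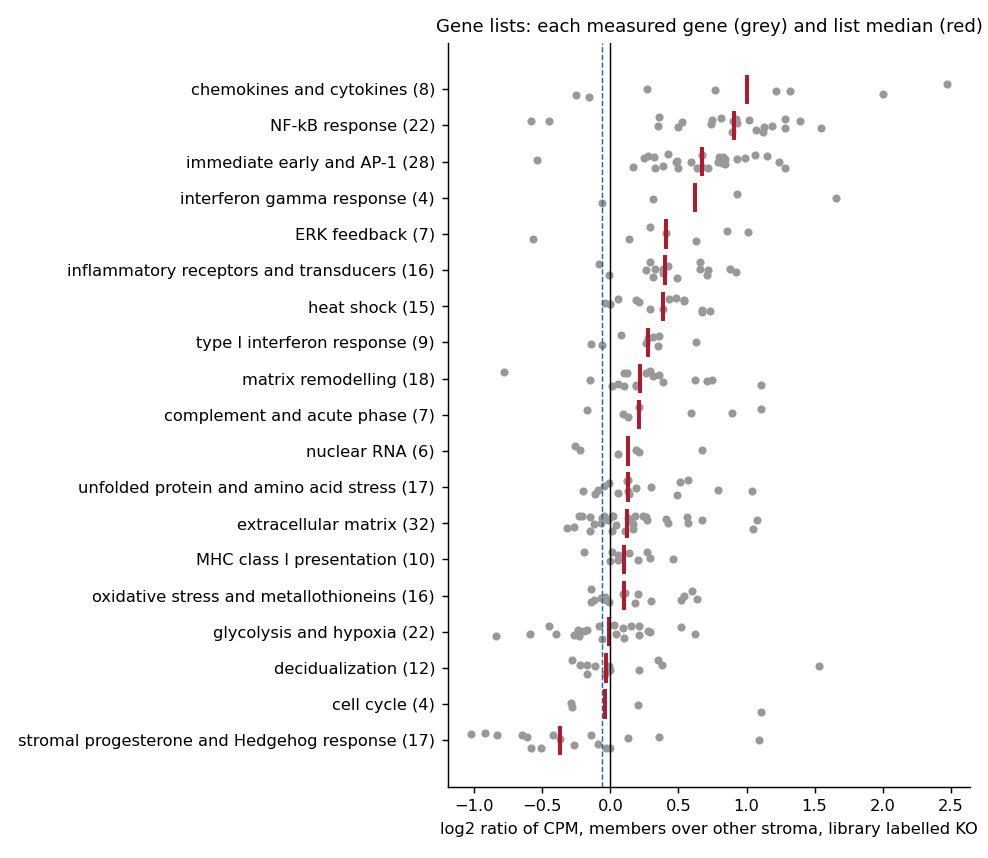
Log2 ratio of CPM, members over other stroma of the library labelled KO (horizontal axis), for each measured gene (grey points) of 19 gene lists (rows, number measured in brackets), with the list median as a red bar. The dashed blue line is the median over all genes, -0.06; the chemokine list has the highest median, 1.00, and the stromal progesterone and Hedgehog list the lowest, -0.37.

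The levels of several genes changed by degrees along the summed level of the 3 genes. The stroma of the library labelled KO was placed in 4 bands, the upper 136 members, the lower 135 members, the 522 cells below the limit with a UMI of the 3 genes, and the 292 cells with none, with median UMI counts of 4022, 3619, 3829 and 3044. Ccl7 was at 544, 225, 89.3 and 25 CPM in these bands. Icam1 was at 285, 194, 94.1 and 54.5 CPM, and Nfkbia at 1432, 1086, 707 and 351 CPM. In the cells with none, the intervals of Ccl7 (15.7 to 37.9) and Icam1 (40.2 to 72.3) held the levels of undivided control stroma, 29.1 and 49.3 CPM. In the same cells Nfkbia at 351 CPM (313 to 393), Cxcl10 at 359 (321 to 401) and Casp4 at 53.4 (39.2 to 71.0) were above control stroma, at 255, 139 and 11.1 CPM. Nfkb1 at 152 CPM (128 to 180) was below it, at 202 CPM. Mgp did not change by degrees, at 292, 79.4, 73.1 and 96.6 CPM in the 4 bands. Errfi1 ran the other way, at 419, 684, 717 and 1038 CPM, as did Tgfbr3, at 333, 463, 620 and 967 CPM. The immediate early list also followed the bands, at 9355, 7695, 5671 and 4624 CPM. Cells with no UMI were shallower, and the part of depth in that band was not tested.

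**Figure D4:**
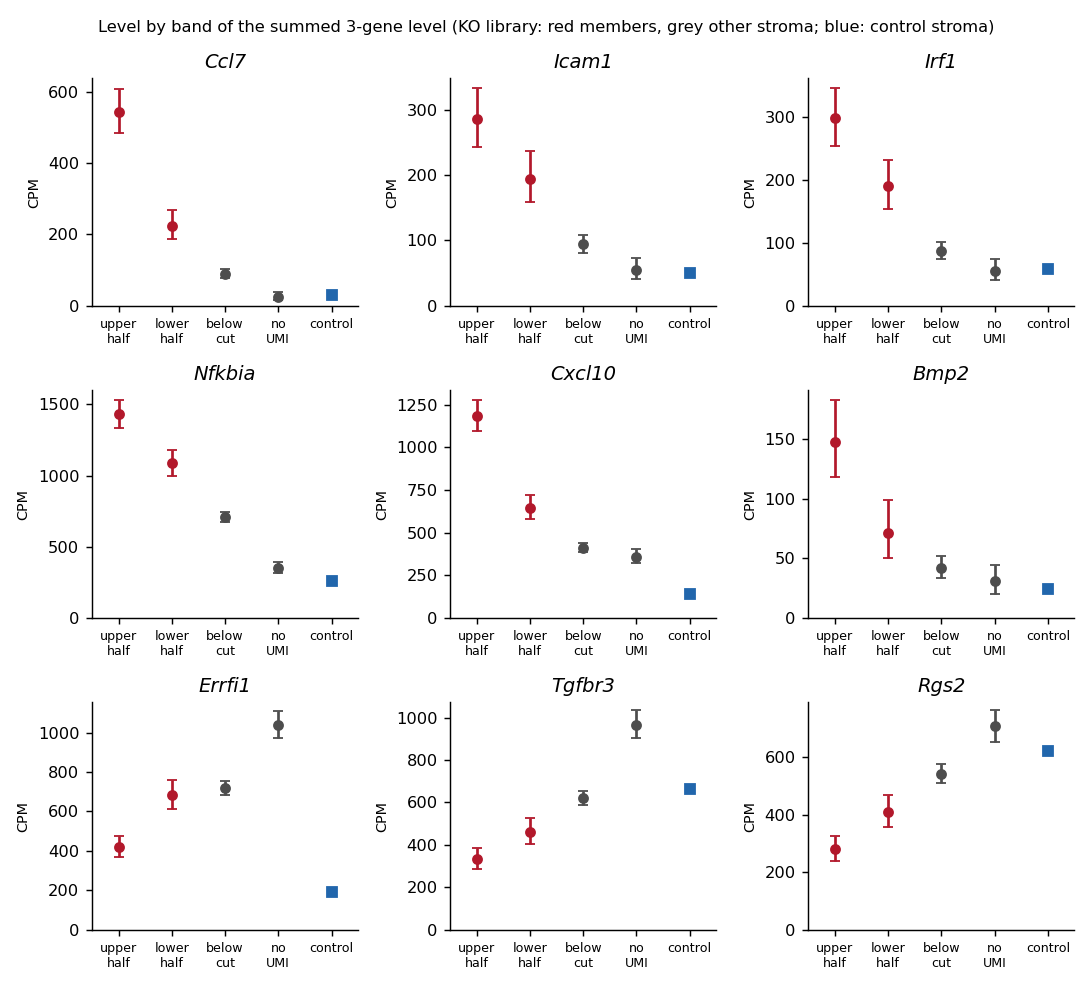
CPM (vertical axes, from 0) of 9 genes in 4 bands of the summed 3-gene level in the library labelled KO, from the upper and lower 50% of members (red) to cells below the limit and cells with no UMI of the 3 genes (grey), and in control stroma (blue square), with 95% Poisson intervals. Ccl7 is at 544 CPM in the upper members and 25 CPM in cells with none, and Errfi1 at 419 and 1038 CPM.

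Ifi27l2a did not follow the chemokines from cell to cell. At 2000 UMIs per cell, Cxcl1 was found in 35.2% of stromal cells with Ccl2 (28.5 to 42.4%) and 13.8% of those without (11.5 to 16.4%) in the library labelled KO. Ifi27l2a was found in 35.8% of cells with Ccl2 (29.0 to 43.0%) and 47.0% of those without (43.4 to 50.6%). By Cxcl1, the shares for Ifi27l2a were 40.6% with (33.2 to 48.2%) and 45.6% without (42.1 to 49.2%). In control stroma, Cxcl1 was found in 16.9% of cells with Ccl2 and 5.05% without, and Ifi27l2a in 3.39% with and 6.30% without.

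The members were then divided by whether Ccl2 and Cxcl1 together or Ifi27l2a gave more of their UMIs of the 3 genes. In 171 members (63.1%, median 4368 UMIs) the UMIs of Ccl2 and Cxcl1 together exceeded those of Ifi27l2a, in 90 (33.2%, median 2994 UMIs) Ifi27l2a exceeded both together, and 10 were tied. The part of this difference in depth in the values that follow was not tested. Ccl2 and Cxcl1 are targets of NF-kB and Ifi27l2a responds to interferons, so the division itself sorts members by such genes. Differences between the kinds in NF-kB and interferon genes can follow from this choice and are a description. All 3 genes were found in 72 members, so the kinds are not separate in them. Of 1803 genes measured between these kinds, 341 (18.9%) were at least 1.5-fold higher in the chemokine-led members and 155 (8.60%) lower. The UMI minimum applied to both kinds together, and the chemokine-led members supplied most UMIs. Genes higher in those members pass it more readily, so these counts do not show which direction prevails. Counts within gene lists are subject to the same minimum. Of the 14 NF-kB genes measured, 13 were higher, with a median log2 ratio of 1.38. Without a minimum, the whole NF-kB list summed to 6560 CPM in the chemokine-led members and 2784 CPM in the Ifi27l2a-led members. Ccl7 was at 510 CPM in the chemokine-led members and 81.6 CPM in the Ifi27l2a-led members, beside 70.3 CPM in the other stroma. Icam1 was at 299, 56.7 and 82.4 CPM in the same groups, and Nfkbia at 1509, 582 and 602 CPM. The immediate early list summed to 10076, 4504 and 5361 CPM, with 17 of 19 measured genes higher in the chemokine-led members, and heat shock genes summed to 21014, 12402 and 14546 CPM.

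Set against the other stroma, the Ifi27l2a-led members were higher in part of the interferon and antigen presentation genes and in genes that lead a stromal cluster described below. Of 9 type I interferon genes measured, 5 were at least 1.5-fold higher in them (239 of all 4970 genes were, 4.81%), with a median log2 ratio of 0.67. Ly6a and Ly6e, surface proteins that interferon induces, had ratios of 2.71 (2.03 to 3.58) and 2.29 (1.75 to 2.97). Ifitm3, which blocks virus entry, was at 1628 CPM in the Ifi27l2a-led members and 997 CPM in the other stroma, a ratio of 1.63 (1.48 to 1.80). H2-K1 and H2-D1, class I antigen-presenting molecules of a family that shares reads, had 1.67 (1.39 to 1.99) and 1.63 (1.29 to 2.05), and 4 of 9 measured class I genes were at least 1.5-fold higher, with a median of 0.53. Lum, a matrix proteoglycan, had a ratio of 3.63 (2.50 to 5.17), Mgp 2.61 (1.93 to 3.49) and the chemokine Cxcl12 2.56 (1.56 to 4.02). These 3 genes and Ly6a are leading genes of cluster 3, and the part of that cluster in the interferon values was not tested. The NF-kB list of these members had 1 of 21 genes at least 1.5-fold higher and 4 lower (554 of all 4970 genes were lower, 11.1%), with a median of -0.15. These members were chosen for fewer UMIs of the NF-kB targets Ccl2 and Cxcl1 than of Ifi27l2a, a limit not set on the other stroma.

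By the medians of measured genes, the chemokine-led members showed the reverse order of lists against the same cells. Their NF-kB list had 17 of 22 genes at least 1.5-fold higher and 1 lower (475 of all 5411 genes were, 8.78%), with a median of 1.20. Their type I interferon list had 0 of 9 measured genes past 1.5-fold in either direction (565 of all 5411 genes, 10.4%, were lower), with a median of -0.07. Of 50 listed genes only these 9 reached the minimum, so the median does not speak for the rest. Interferon genes below the minimum went both ways against the other stroma. Ifit1 was at 26.1 CPM in the chemokine-led members, 21.3 CPM in the Ifi27l2a-led members and 5.72 CPM in the other stroma. Isg15 was at 40.5, 28.4 and 18.5 CPM, Irf9 at 14.4, 31.9 and 22.9 CPM, and the chemokine Cxcl10 at 1163, 255 and 396 CPM. Ifit2, Herc6, Ddx58 and Parp14 were at 39.2, 18.3, 22.2 and 19.6 CPM in the chemokine-led members. In the other stroma they were at 20.9, 8.75, 11.4 and 10.8 CPM. Slfn5, Samd9l, Rtp4 and Oasl2 were lower, at 10.5, 9.15, 9.15 and 11.8 CPM beside 17.2, 12.8, 10.8 and 13.5 CPM. Apart from Cxcl10, these genes had few UMIs. Ly6a was at 78.4 CPM in the chemokine-led members and 83.8 CPM in the other stroma. Errfi1 had a ratio of 0.576 (0.514 to 0.644) in the chemokine-led members and 0.926 (0.801 to 1.07) in the Ifi27l2a-led members, and Tgfbr3 0.347 (0.298 to 0.403) and 1.09 (0.949 to 1.26). Rgs2 was at 261 CPM in the chemokine-led members, 571 CPM in the Ifi27l2a-led members and 591 CPM in the other stroma, and Bnc2 at 242, 450 and 512 CPM. Of the stromal markers, Hoxa10 was at 158, 358 and 283 CPM, Hoxa11 at 81.0, 142 and 141 CPM and Nr2f2 at 213, 231 and 311 CPM. In the chemokine-led members Hoxa10 had a ratio of 0.559 (0.458 to 0.677) and Hoxa11 0.573 (0.432 to 0.750). Esr1, Col1a1 and Col6a1 had ratios of 0.938, 0.957 and 0.993 in them.

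**Figure D5:**
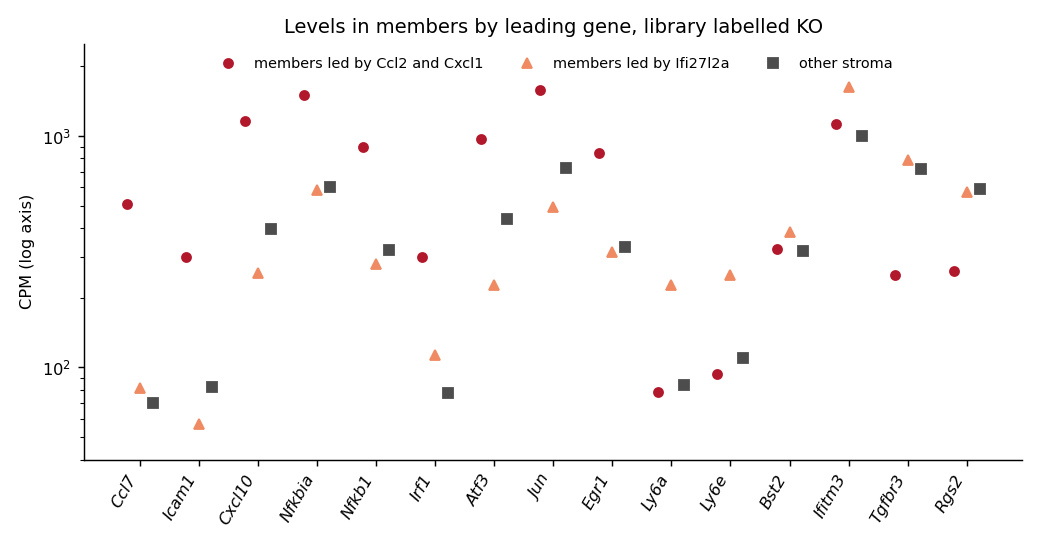
CPM (vertical log axis) of selected NF-kB, immediate early, interferon and stromal genes (horizontal axis) in members led by Ccl2 and Cxcl1 (red circles), members led by Ifi27l2a (orange triangles) and the other stroma of the library labelled KO (grey squares). Ccl7, Icam1 and Nfkbia stand apart in the chemokine-led members, at 510, 299 and 1509 CPM, and Ly6a and Ly6e in the Ifi27l2a-led members, at 227 and 252 CPM.

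Over all members, few measured genes of the type I interferon and class I lists passed 1.5-fold, but most were above 1. Of 50 type I interferon genes, 9 reached 100 UMIs, and 7 of these had a ratio above 1. In that list 1 gene (Ly6a) was at least 1.5-fold higher, and the median log2 ratio was 0.28, beside -0.06 over all genes. Of 10 class I presentation genes measured, 9 were above 1 and 0 at least 1.5-fold higher, with a median of 0.10. Of 4 interferon gamma genes measured, 2 were higher (Irf1 and Socs1), with a median of 0.62. Isg15, a ubiquitin-like protein that interferon induces, had 39 UMIs in the members and 55 in the other stroma (36.2 and 18.5 CPM), against 4.62 CPM in control stroma. Ifit1 had 26 and 17 UMIs (24.1 and 5.72 CPM). Bst2, an interferon-induced tether of viruses, was at 337 and 320 CPM in the members and the other stroma and 67.9 CPM in control stroma.

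When the stroma of the library labelled KO was clustered without the 3 genes, members occurred in each of the 5 clusters. Here CPM is over all UMIs. Cluster 0 (229 cells) consisted of 40.2% members, with Ccl2 at 748 CPM, and cluster 2 (322 cells), led by Dusp1, Hspa1a, Atf3, Ier3, Egr1 and Fos, held 30.4%, with Cxcl1 at 383 CPM. Cluster 3 (83 cells), led by Mgp, Lum, Vegfd, Ly6a, Prss23 and Cxcl12, held 30.1%, with Ifi27l2a at 635 CPM. Cluster 1 (251 cells) held 17.5%, with Ifi27l2a at 475 CPM and Ccl2 at 34.7 CPM. Cluster 4 (200 cells), led by Sybu, Ripor2, Pcsk5, Bnc2, Gli2, Scube1 and Tgfbr3, held 6.0%, with Ccl2 and Cxcl1 at 1.40 CPM each. Of these leading genes, Ripor2, Pcsk5, Bnc2, Scube1 and Tgfbr3 are also among the 10 ranked lower in the members.

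Receptors for the chemokines and activators of inflammation were looked for in other cells. The leukocytes had a median of 1753 UMIs in the library labelled KO (170 cells) and 5507 in the control (147 cells), so their shares of cells with a UMI are not compared. Ccr2, the receptor for Ccl2 and Ccl7, was found in 30 of 170 leukocytes of the library labelled KO (17.6%, 12.2 to 24.2%). Over all UMIs, Ccr2 was at 110 CPM (77.7 to 152) in these leukocytes and 187 CPM (160 to 218) in those of the control. It was found in 0 of 1085 stromal cells of the library labelled KO, where a limit of 3 counts allows up to 0.276% of cells with a UMI. Cxcr2, the receptor for Cxcl1 and Cxcl2, was found in 0 of the leukocytes of the library labelled KO (up to 1.76% by the same limit), and Cxcr3 in 6 of them (3.53%). Il1a, an activator of NF-kB, was at 82.3 CPM in epithelium of the library labelled KO and 22.9 CPM in control epithelium, and had 1 UMI in the stroma of each library. Il1b was at 355 CPM in leukocytes of the library labelled KO and 189 CPM in those of the control, Tnf at 89.4 and 78.4 CPM, and Ifng at 128 and 118 CPM. The Il1b UMIs lay in 13 and 17 cells.

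Promoters of the ranked genes were searched for the same NF-kB motif, and for the core of the interferon-stimulated response element, ISRE (GAAA, any 2 bases, then GAAA), on both strands. Of the 15 higher genes, 11 were in the RefSeq table with 13 promoters. Of these, 4 held an NF-kB match (30.8%, beside 1.63% of all promoters), and 1 held an ISRE match (beside 3.44%). Overlapping Casp4 windows, counted as separate promoters, hold the same NF-kB matches. By gene, 3 of 11 held an NF-kB match, beside 512 of all 27025 genes with promoters there. Of the 10 lower genes, 7 were in the table with 10 promoters, of which 0 held either. The matches are shown within 30 bases of the gene's strand, build GRCm38.p6, with the matched letters in capitals (a single capital at an end belongs to the neighbouring match).
Cxcl2 chr5:90903792-90903821 (+): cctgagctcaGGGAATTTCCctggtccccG
Cxcl2 chr5:90903811-90903840 (+): CctggtccccGGGCTTTTCCagacatcgtg
Casp4 chr9:5308746-5308775 (+): atgagttacaGGGGATTTCCccacagcagt
Casp4 chr9:5308825-5308854 (+): cctatgctaaGGAAATGCCCagtaactttc
Nfkbia chr12:55492657-55492686 (-): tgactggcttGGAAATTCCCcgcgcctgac
Cxcl10 chr5:92349083-92349112 (-), ISRE: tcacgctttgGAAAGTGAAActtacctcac
The first Cxcl2 match has the same 10 letters as the plus-strand match of Cxcl1, 97 bases before its start site. A match is a run of letters and not a bound site, and no match says only that these letters are not in the window.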

How the data were processed

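The authors deposited whole-number UMI counts for each gene and barcode. The software was Cell Ranger 7.0.1 per the file headers. The submitters' processing notes name Seurat, without a version, and the build mm39. Barcodes were kept where 500 or more genes were detected and mitochondrial UMIs made up no more than 15% (2951 in the library labelled KO, 4462 in the control). Stroma had at least 10 per 10000 UMIs of the 6 stromal genes, under 5 of Epcam, Krt8, Krt18 and Cldn7 and under 20 of Actg2, Cnn1, Myh11 and Des. UMIs were summed per group, and ratios carry exact conditional intervals, sums exact Poisson intervals and shares exact binomial (Clopper-Pearson) intervals, at 95%. A share of 0 carries instead the limit that 3 counts give. The calculation was tested on simulated data. A list is given by the median log2 ratio of its measured genes.

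Genes were singled out as the 15 higher and 10 lower in the members with at least 50 CPM in the higher group, at least 100 UMIs and 1.5-fold, ranked by the interval bound nearest 1; 1 of the 10 is counted but not reported here. The 3 genes of the rule, the genes defining cell types in it, mitochondrial, ribosomal and hemoglobin genes and unnamed models were left out. The members and the 19 gene lists were chosen with earlier results of these data known. Clusters used 2000 variable genes, 30 components, 15 neighbours and Leiden resolution 0.5 in scanpy 1.11.5. Doublets were kept, and an alternative removed the 74 barcodes with the highest Scrublet scores. Epithelial cells and leukocytes had at least 10 per 10000 UMIs of their own genes and under 10 of the stromal genes, and leukocytes also a Ptprc UMI. Similar genes can share reads in the authors' counting, and the design text gives n = 1 per genotype.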

Additional observations from a re-analysis of the deposited data

Results flagged for a closer look

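Among the ranked and listed genes, 2 had opposite directions in the same split of the 2 libraries, with both intervals away from 1. Il1rap, the co-receptor for interleukin 1, had a ratio of top 25% over other stroma of 1.89 in the library labelled KO and 0.840 in the control. P4ha2, a collagen-modifying hydroxylase of the glycolysis and hypoxia list, had 0.662 in the library labelled KO and 1.11 in the control. With 1 library per genotype, the difference between the libraries was not tested.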

How the results depend on the processing

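The 15 higher genes stayed above 1 and the 10 lower genes below 1 under 16 alternatives; 2 others change only which genes are measured. The 308 higher and 312 lower genes became 201 and 175 with cells thinned to 2000 UMIs, 843 and 1249 with at least 20 UMIs per gene, and 125 and 42 with at least 300. The lower genes numbered 580 with the top 10% as members and 148 with the top 50%. Without Ccl2 in the rule there were 124 higher and 163 lower genes, without Cxcl1 176 higher, and without Ifi27l2a 577 and 615. With the top 25% taken within 5 bins of the immediate early list there were 132 and 168, and within clusters 119 and 118, both added after seeing the data. The NF-kB median of 0.91 was 0.32 without Ccl2 and 1.28 without Ifi27l2a in the rule, 0.50 within bins of the immediate early list and 0.59 within clusters. The type I interferon median of 0.28 was -0.17 without Ifi27l2a. The immediate early median of 0.67 was 0.33 without Cxcl1, 0.97 without Ifi27l2a, 0.15 within the bins of that list and 0.39 within clusters. Of the 10 lower genes, 1 stayed past 1.5-fold without Ccl2, 7 without Cxcl1, 9 when thinned, 5 with the top 50%, 2 within the bins of the immediate early list and 0 within clusters. The causes were not tested. The class I presentation median of 0.10 lay between -0.04 (without Ifi27l2a) and 0.22 in the alternatives. No paired analysis was possible because each genotype has 1 library. Counts per gene limit the precision. Genes under 100 UMIs were left out of the main counts and list medians, and those named are given only as UMIs or CPM.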

Other observations

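Control stroma held a barcode with 7402 of the 11866 UMIs (62.4%) of the immunoglobulin genes Igkc, Igha and Jchain in its lower 75% by the 3 genes. No ratio is given for these genes. The gene models Gm42418 and AY036118, which overlap ribosomal RNA, had ratios of members over other stroma of 0.723 (0.682 to 0.766) and 0.472 (0.392 to 0.565). In the control split the ratios were 0.633 (0.617 to 0.650) and 0.603 (0.555 to 0.654). Malat1, a nuclear RNA, had 1.14 (1.12 to 1.16) and 1.05 (1.05 to 1.06).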
